A study of Mus musculus with 18 samples.

Results

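The comparison described here set cytoplasmic RNA of BV2 cells after 24 h of oxyhemoglobin against cytoplasmic RNA of the same line after 12 h. BV2 is an immortalised mouse microglial line, and oxyhemoglobin, the oxygen-carrying blood pigment, was added at 10 µM. The 24 h cytoplasmic group had 3 libraries, the 12 h cytoplasmic group had 3, and the untreated (0 h) cytoplasmic group, used for the starting level, had 3. Cells were opened with a hypotonic detergent buffer, nuclei were spun down, and the supernatant gave the cytoplasmic RNA. The nuclear fractions of the same 3 conditions made up the other 9 of the 18 libraries, and the nuclear groups at 24 h and 12 h served as the counterpart. No genotype differed between the groups, and untreated cells kept for 12 or 24 h were not part of the design, so time in culture and time in oxyhemoglobin cannot be told apart. Genes were taken into the comparison where the mean count was at least 10 in either cytoplasmic group, which left 11273 of 55487 genes.

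Each deposited column is the mean of 3 libraries, so every level below is a group mean and no spread between libraries can be given. Levels are CPM (reads per 1000000 reads) scaled within the cytoplasmic columns. A ratio is the log2 of the 24 h level over the 12 h level, and the interval beside it is an exact 95% counting interval that covers counting error only. A gene was called lower or higher where it differed at least 2-fold and that interval left out 0. No p-value is given, a call says nothing about variation between libraries, and the labels do not say whether the 3 libraries came from separate cultures.

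Microglia answer blood breakdown products and other danger signals with a burst of cytokine, chemokine and prostaglandin-enzyme transcripts. Many of these mRNAs carry AU-rich elements, repeats of ATTTA in the 3′ untranslated region (UTR), to which decay factors such as tristetraprolin bind, and their cytoplasmic level then depends on both new synthesis and decay. A second set, the interferon-stimulated genes, is switched on by STAT and IRF factors at promoter elements built from GAAA repeats. RNA measured in the cytoplasm is what remains after synthesis, export and decay, and the ratio of 2 times does not separate them.

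AU-rich stretches of some cytokine and enzyme mRNAs called lower at 24 h are shown first, because they let the reader set the repeats beside the ratios given further on. Each line holds the 30 bases of the 3′ UTR with the most copies of ATTTA, from GENCODE M21 transcripts on GRCm38, 5′ to 3′ on the transcript strand, with each ATTTA in capitals. Tnf, which was not called, is included for contrast. Only stretches with at least 2 copies are shown, so the genes are a selection. The richest stretch of Mmp13, a collagenase gene also called lower, held 1 copy, as did those of Ccl2 and Ccl7, which were not called. Acod1, an enzyme gene called lower, has 1 ATTTA in its whole UTR.
Il1b, chr2:129364801-129364830, minus strand: ttacctATTTATTTAtgtATTTAttgattg
Il1a, chr2:129300102-129300131, minus strand: ctatgtATTTAtaaatatATTTAtgataat
Csf3, chr11:98702988-98703017, plus strand: gtttATTTAtctctATTTAatATTTAtgca
Ptgs2, chr1:150105798-150105827, plus strand: ATTTATTTATTTAtgtgaagaATTTAattt
Il6, chr5:30019684-30019713, plus strand: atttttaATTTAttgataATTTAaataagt
Tnf, chr17:35199677-35199706, minus strand: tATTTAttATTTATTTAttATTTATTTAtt

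Between 12 h and 24 h most cytoplasmic RNAs stayed close to their level. The ratio of 9485 genes (84.1%) was within 1.5-fold, and the median over all genes was -0.04. At least 2-fold lower at 24 h were 184 genes (1.63% of those compared), among them the interleukin 1 genes, a collagenase and interferon-stimulated genes. The lowest ratio of all was that of Actc1, a muscle actin at -8.88, described with the marker genes of other cell types. At least 2-fold higher were 314 genes (2.79%), of which 28 reached a mean of 5 CPM, against 68 of the lower ones. The genes called higher therefore lay mostly at low counts: their median mean count was 16.2 at 24 h and 5 at 12 h, against 11.5 at 24 h and 22.5 at 12 h for the genes called lower. Near the count limit, 33 of the 300 genes whose higher mean count was between 10 and 10.7 were called higher and 14 lower. Among the 374 genes just outside it, with a higher mean count between 9 and 9.67, the same rule would have marked 54 as higher and 21 as lower. Scaling by total counts in place of the trimmed mean shifted the all-gene median by 0.11 and gave 137 lower and 435 higher genes, so that 76.0% of the calls were higher, against 63.1% with the scaling used here. Many calls at low levels also rest on the absence of a pseudocount. Of the 193 named genes only some were called, and 26 of those lost their call with 1 added to the scaled CPM. In the authors' TPM + 1, which also differs in scaling, 36 lost it, the strongly read Acod1 (-0.88) included.

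**Figure D1:**
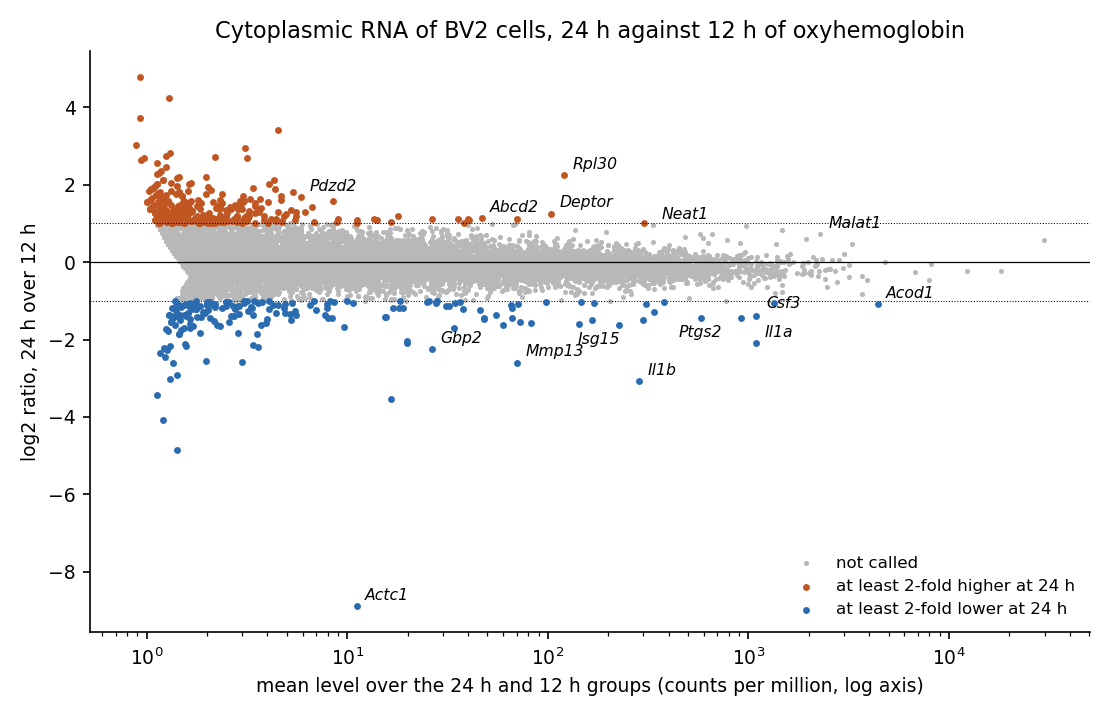
Each point is a gene; the x axis is its mean level over the 24 h and 12 h cytoplasmic groups (CPM, log axis) and the y axis the log2 ratio of 24 h over 12 h, with dotted lines at 2-fold. The 314 genes called higher crowd at the left, at low levels, while the lower side reaches far to the right with Il1a, Csf3, Ptgs2 and Acod1.

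Summed over 3 libraries the totals were 19537309 reads in the 24 h cytoplasm, 16537318 in the 12 h cytoplasm and 22379595 in the untreated cytoplasm. A floor of 3 reads over a group corresponded to 0.154, 0.181 and 0.134 CPM per total counts in these groups. Of the 15 microglia and macrophage markers, 7 could be compared, none was called and their median ratio was -0.17. Their summed level was 4308 CPM per total counts at 24 h, 3956 at 12 h and 6006 at 0 h, mostly from Lyz2, a lysozyme gene that shares 32.8% of its 31-base words with other genes. Laptm5, Cd14 and Spi1 were also well read. Of the defining markers, Ctss was at 0 in all 6 groups, and Aif1, Cx3cr1 and Csf1r had mean counts of at most 0.667, 1 and 3.67 in the treated cytoplasm.

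Single markers of muscle and fibroblasts stood out in the 12 h group and hold some of the lowest ratios. Actc1, the cardiac muscle actin, had a mean count of 0.333 at 24 h, 123 at 12 h and 0 at 0 h in the cytoplasm, and 0 in all 3 nuclear groups. The collagen gene Col1a1 had mean counts of 0.667 at 24 h, 15 at 12 h and 0 at 0 h, and Col3a1 had 0, 13.3 and 0. These 3 were the only genes with a mean count of at least 10 in the 12 h cytoplasm and at most 1 in both other cytoplasmic groups, and no gene stood alone at 24 h in that way. As the columns are means, whether 1 library or all 3 of the 12 h group carried these reads cannot be told. The 28 striated muscle markers summed to mean counts of 46.3 at 24 h, 171 at 12 h and 21.3 at 0 h, with 18, 11 and 19 of them at 0, and Actc1 made up 123 of the 171. The 15 fibroblast markers summed to mean counts of 24.7 at 24 h, 43 at 12 h and 3 at 0 h, with 8, 7 and 11 at 0, and Col1a1 and Col3a1 made up most of the 12 h sum. Col5a2, another collagen gene, went the other way, with mean counts of 15 at 24 h and 1.67 at 12 h. The 20 markers of neurons, astrocytes, oligodendrocytes and endothelium summed to 157 at 24 h, 88.3 at 12 h and 222 at 0 h, with 10, 11 and 12 at 0. Much of these sums came from the endothelial gene Vwf (34.7 at 24 h, 22.7 at 12 h, 132 at 0 h) and the myelin gene Mbp (84.3, 22 and 64.3). Other members did not share this order, and S100b and Pecam1 were lowest at 0 h. Mbp was called higher and Cdh5, an endothelial cadherin, lower. The 10 erythroid markers summed to mean counts of 6.67 at 24 h, 9.33 at 12 h and 8.33 at 0 h, and the 16 markers of lymphocytes and neutrophils to 11.3, 5 and 9.33. None of either list reached the count limit. The part of such cells in the results was not tested.

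Among interleukins, TNF and colony-stimulating factors, 4 of 14 compared genes were called lower and none higher, and 13 ratios lay below 0. The list's median ratio was -0.74, beside -0.04 for all genes. Il1b, which encodes the secreted interleukin 1 beta, averaged 62.1 CPM at 24 h against 522 CPM at 12 h, and 1.09 CPM in untreated cells. Its ratio was -3.07 (interval -3.16 to -2.99). The neighbouring Il1a, the cell-associated form of the cytokine, had 424 CPM at 24 h against 1798 CPM at 12 h, a ratio of -2.08 (-2.12 to -2.05). Both were low at 0 h, where Il1a had 11.9 CPM, and at 24 h both still stood far above that level.

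The granulocyte factor Csf3 had 603 CPM at 24 h against 1596 CPM at 12 h, a ratio of -1.40 (-1.43 to -1.37). Il6 had 3.47 CPM at 24 h and 7.18 CPM at 12 h, a ratio of -1.05 (-1.50 to -0.61) that stood at -0.94 when total counts were used for scaling. Tnf had 21.4 CPM at 24 h and 28.2 CPM at 12 h, and its ratio of -0.40 did not reach 2-fold. The cytokines therefore differed in how much of their 12 h level was left. Read as a simple exponential fall over 12 h, which is arithmetic and no measured decay rate, the halving times were 3.91 h for Il1b, 5.76 h for Il1a, 8.55 h for Csf3 and 30.1 h for Tnf.

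Of 11 chemokine genes, 3 were called lower, none higher, and the median ratio was -0.64. The called ones were at low levels: Ccl17 had 0.196 CPM at 24 h and 2.12 CPM at 12 h, the neutrophil attractant Cxcl2 had 0.831 and 2.62 CPM, and Cxcl14 had 1.66 and 4.19 CPM. With a mean count of at least 50 required, none of the 3 was left. In the authors' TPM + 1 the ratios of Cxcl2 and Cxcl14 were -0.50 and -0.68. The strongly read chemokines were not called: Ccl3, a macrophage inflammatory protein gene, had 6115 CPM at 24 h and 7345 CPM at 12 h, a ratio of -0.26, and the monocyte attractant Ccl7 had 2685 and 4759 CPM, a ratio of -0.83. Ccl2, a related attractant read at a lower level, had 10.8 CPM at 24 h and 16.8 CPM at 12 h. Cxcl10, an interferon-inducible chemokine, lay above 0 with mean counts of 26 at 24 h and 13.3 at 12 h, a ratio of 0.61 (0.04 to 1.20). Its nuclear ratio was -1.23.

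Enzymes of the inflammatory response were lower in part. Ptgs2, the inducible cyclooxygenase that makes prostaglandin precursors, had 498 CPM at 24 h against 1353 CPM at 12 h, a ratio of -1.44 (-1.47 to -1.41). Acod1, which makes itaconate, had 2848 CPM at 24 h against 6035 CPM at 12 h, a ratio of -1.08 that became -0.97 when total counts were used. Arg1, which splits arginine, had 3.23 CPM at 24 h, 7.81 CPM at 12 h and 34.0 CPM at 0 h. Unlike Ptgs2 and Acod1, it was highest in untreated cells and lowest at 24 h. The ratio of Arg1 was -0.84 in the authors' TPM + 1, which ended its call. Nos2, the inducible nitric oxide synthase, had 52.7 CPM at 24 h and 46.2 CPM at 12 h, a ratio of 0.19 (0.05 to 0.33). In all, 3 of the 13 enzymes on this list were called lower, none higher, and the median was -0.27.

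Secreted enzymes and acute-phase proteins held a few large differences. Mmp13, a collagenase, had 20.4 CPM at 24 h against 123 CPM at 12 h, a ratio of -2.60 (-2.75 to -2.44), and Mmp10, a stromelysin, had 0.831 and 2.94 CPM. The other 7 compared metalloproteinases and inhibitors were not called, Mmp9 had 18.5 CPM at 24 h and 19.6 CPM at 12 h, and the list's median was 0.05. Of 9 complement and acute-phase genes, 3 were called lower: the haptoglobin gene Hp (4.64 CPM at 24 h, 14.9 CPM at 12 h), Lcn2 (26.0 and 71.1 CPM), which binds bacterial siderophores, and Serpina3g (2.98 and 7.50 CPM), whose sequence is shared in part with other genes. Hdc, which makes histamine, had 7.68 CPM at 24 h and 32.7 CPM at 12 h, and Cybb, the catalytic subunit of the phagocyte NADPH oxidase, had 315 CPM at 24 h, 860 CPM at 12 h and 533 CPM at 0 h. The TNF receptor gene Tnfrsf1b had 875 CPM at 24 h against 1814 CPM at 12 h.

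**Figure D2:**
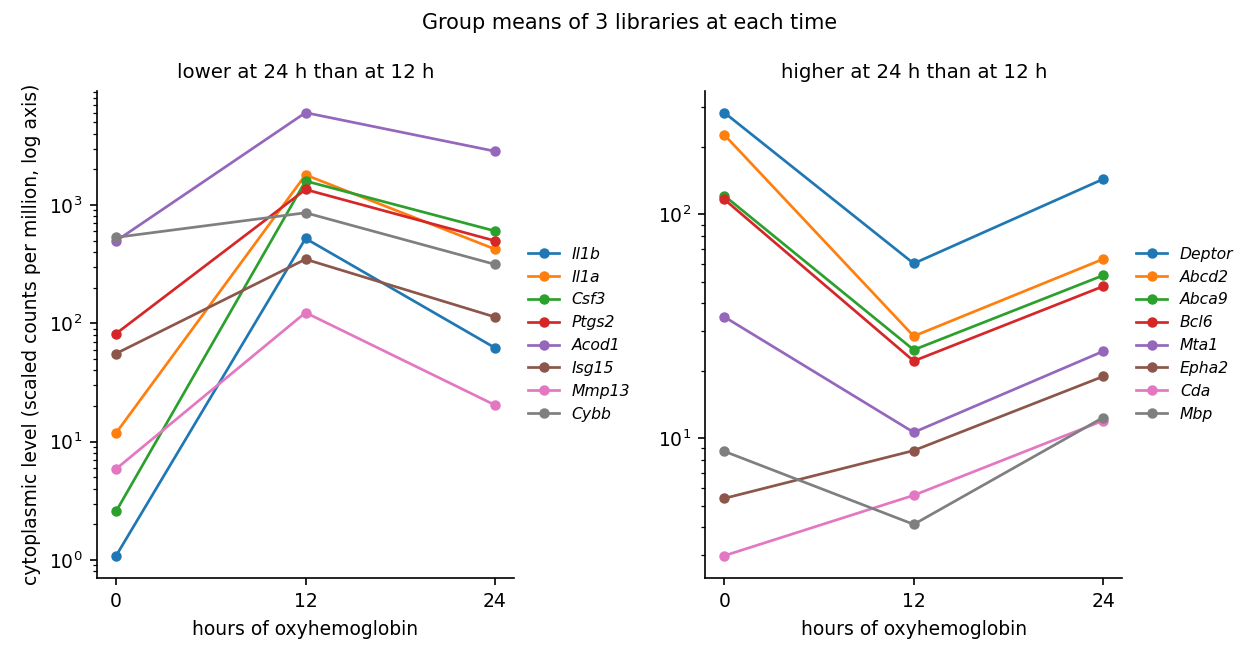
Cytoplasmic group means (scaled CPM, log axis) at 0, 12 and 24 h for 8 genes called lower and 8 called higher at 24 h; each point is the mean of 3 libraries and has no error bar. Il1b, Il1a and Csf3 stand far above their untreated level at 24 h, whereas Deptor, Abcd2, Abca9 and Bcl6 stand below theirs.

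Interferon-stimulated genes formed the list with the largest number of calls. All 30 compared members of the type I interferon list had ratios below 0, between -2.03 and -0.28, 13 were called lower and none higher, and the median was -0.83. Isg15, a ubiquitin-like antiviral modifier, had 113 CPM at 24 h against 348 CPM at 12 h, a ratio of -1.62 (-1.69 to -1.55). Ifit1, which binds foreign RNA ends, had 41.7 CPM at 24 h against 125 CPM at 12 h, and Ifi44 had 29.5 against 91.5 CPM. Irf7, a transcription factor of the interferon response, had 31.1 CPM at 24 h, 80.0 CPM at 12 h and 73.8 CPM at 0 h, so its 24 h level was also below the untreated one. Ifit3 and Ifit3b (ratios -1.56 and -2.03) share much of their sequence with each other, and reads could have been split between them. The 5 interferon-induced GTPases, which act on pathogen vacuoles, had a median of -1.01, and 3 of them were called lower: Gbp2 (9.39 CPM at 24 h, 44.5 CPM at 12 h), Igtp (2.05 and 4.69 CPM) and Irgm1 (18.8 and 37.7 CPM). Irgm1, at a ratio of -1.01, lost its call under scaling by total counts. In the authors' TPM + 1 Igtp and Irgm1 had ratios of -0.50 and -0.69, which ended both calls. None of 17 genes of MHC class I antigen presentation was called, with a median of -0.29.

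Promoters of many interferon genes hold a pair of GAAA repeats, the core of interferon response elements. The motif searched was GAAA, any 2 bases, then GAAA, on either strand, in the 250 bases before and 50 after each start site (RefSeq, GRCm38.p6, matched by symbol). It was present for 23 of the 118 genes called lower that had a promoter in the table (19.5%), for 6 of 158 called higher, for 289 of all 7340 compared genes (3.94%) and for 1079 of the table's 27025 symbols (3.99%). Among genes with a mean of at least 5 CPM it was present for 15 of 49 called lower (30.6%) and 194 of 5173 in all (3.75%). A pair typical of NF-kB elements, GGGA, any 2 bases, then TTCC, was present for 6 of the 118 lower genes (5.08%) and 137 of the 7340 (1.87%). The interferon genes were already in view when this motif was chosen, and a match is a description, not a bound site. Any link between the motif and the ratios was not tested. Stretches around the motif are shown for a few genes called lower whose values are given above, 5′ to 3′ on the gene's strand. The motif is in capitals, read as TTTC pairs where it lies on the opposite strand, with overlapping copies run together. Cybb and Tnfrsf1b show it outside the interferon list.
Isg15, chr4:156200865-156200906, minus strand: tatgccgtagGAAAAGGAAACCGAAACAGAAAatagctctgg
Ifit1, chr19:34640775-34640804, plus strand: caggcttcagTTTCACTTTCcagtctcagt
Ifit3, chr19:34583363-34583392, plus strand: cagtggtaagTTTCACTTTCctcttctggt
Gbp2, chr3:142620594-142620623, plus strand: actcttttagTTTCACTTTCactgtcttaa
Irgm1, chr11:48871425-48871460, minus strand: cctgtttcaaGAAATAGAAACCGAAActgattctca
Cybb, chrX:9469473-9469502, minus strand: tagcagtagcTTTCATTTTCcagtgtattt
Tnfrsf1b, chr4:145246861-145246890, minus strand: ggcctgagggTTTCGCTTTCagtcaccagc

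AU-rich repeats were counted over the 3′ UTRs of all protein-coding genes compared. Of 124 protein-coding genes called lower with an annotated 3′ UTR, 77 held ATTTA (62.1%), against 5971 of all 8558 such genes (69.8%). The UTRs of the lower genes were shorter, with a median of 838 bases against 1096 bases for all. The longer motif TATTTAT was present in 33 of the 124 lower genes (26.6%), 43 of 163 higher genes (26.4%) and 2513 of all 8558 (29.4%). By this share the lower genes did not stand out. Counted with repeats, it occurred 0.468 times per kilobase of UTR in the lower genes, 0.270 times in the higher genes and 0.286 times in all. Among genes with a UTR under 1500 bases, 43 held 3 or more copies and 5 of these were called lower (11.6%), namely Il1b, Il1a, Mmp13 and the low-level Cxcl2 and Dusp1, against 69 of 4367 genes with none (1.58%). The median ratio was -0.26 for the 43 genes and -0.05 for the 4367 with none. Single genes with many copies differed: Tnf, with 8 copies of TATTTAT, had a ratio of -0.40, Csf2, with 9, had -0.29 and Cxcl2, with 7, had -1.66. Il1b, Il1a and Mmp13, with 3, 3 and 4, had -3.07, -2.08 and -2.60. Whether the ratio follows the number of copies was not tested. In UTRs of 1500 bases or more the order was the reverse. There, 2 of 290 genes with 3 or more copies were called lower (0.690%), Ptgs2 with 6 copies among them, against 22 of 1678 with none (1.31%). The split by UTR length was not planned.

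NF-kB feedback genes and early response genes held few calls. Of 15 NF-kB subunits, inhibitors and feedback genes, the adaptor Traf1 was called lower, with 8.60 CPM at 24 h and 22.9 CPM at 12 h, and the median was -0.35. In the authors' TPM + 1 the ratio of Traf1 was -0.75, which ended the call. Nfkbia, the NF-kB inhibitor, had 442 CPM at 24 h, 557 CPM at 12 h and 78.6 CPM at 0 h. Of 17 immediate early genes, Fos, an AP-1 subunit, was called lower, with 16.5 CPM at 24 h and 33.7 CPM at 12 h, a call that ended under scaling by total counts.

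Most genes of the heme and oxidative stress response were not called. Hmox1, the enzyme that breaks down heme, had 1488 CPM at 24 h and 1488 CPM at 12 h, against 441 CPM at 0 h, so that the level at 24 h stood where it had been at 12 h (ratio 0.00, interval -0.02 to 0.03). The cystine importer Slc7a11 had 1942 CPM at 24 h and 3006 CPM at 12 h, a ratio of -0.63. Of 23 NRF2 targets none was called lower and Nqo1, a quinone reductase, was called higher, with 5.57 CPM at 24 h, 2.56 CPM at 12 h and 0.498 CPM at 0 h. The ratio of Nqo1, 1.12, was 0.88 with 1 added to the scaled CPM, which ended the call, and its nuclear ratio was -0.99. Of 31 heme and iron genes, Lcn2 was lower and 2 were higher at low levels: Steap3, an endosomal iron reductase (2.15 CPM at 24 h, 0.812 CPM at 12 h), and Hmox2 (3.47 and 1.37 CPM), which shares 46.0% of its 31-base words with other genes. Their ratios of 1.41 and 1.34 were 0.24 and 0.62 in the authors' TPM + 1, which ended both calls. The median of the list was -0.01.

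**Figure D3:**
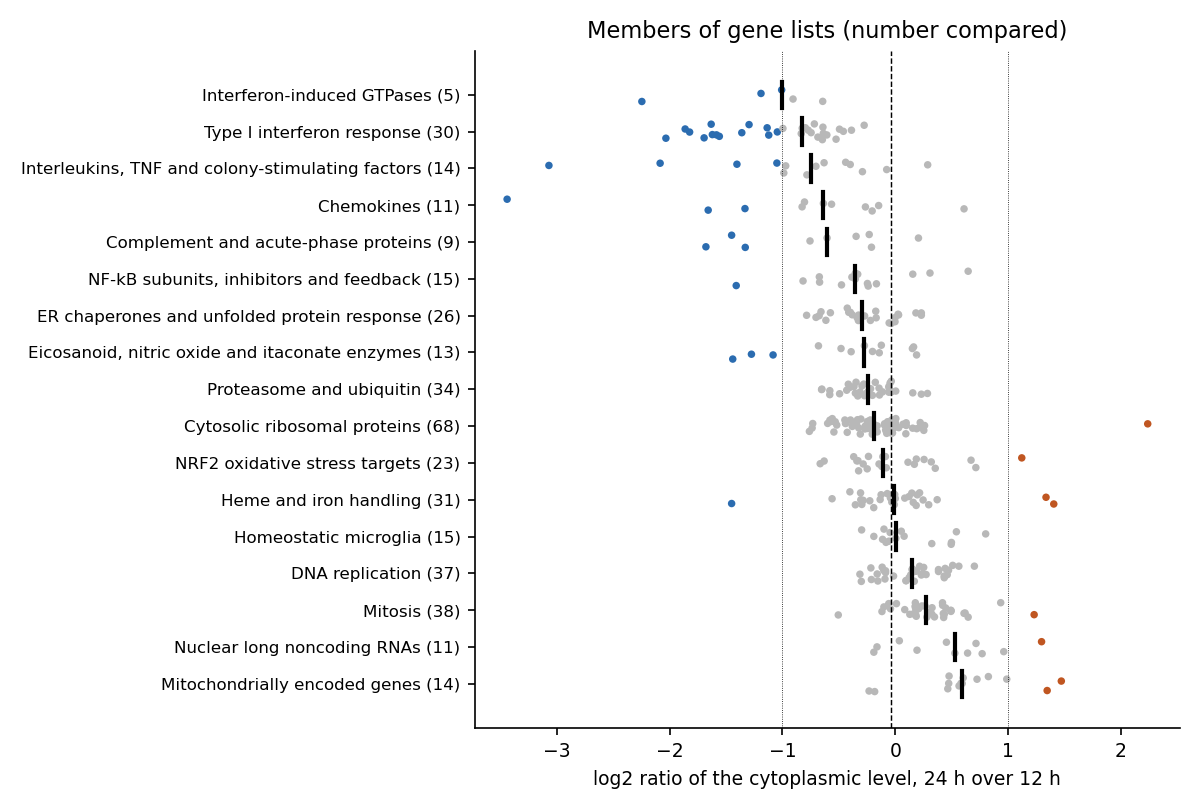
Log2 ratio of 24 h over 12 h for each compared member of 17 gene lists, with the number compared in brackets; black bars are list medians, blue and orange points are genes called lower and higher, and the dashed line is the median of all genes (-0.04). The interferon and cytokine lists lie to the left and the mitochondrial and nuclear noncoding RNAs to the right.

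Genes higher at 24 h included a group that was below its untreated level at 12 h. Deptor, an inhibitor of the mTOR kinase, had 144 CPM at 24 h, 60.3 CPM at 12 h and 284 CPM at 0 h, a ratio of 1.25 (1.15 to 1.36). Abcd2, a peroxisomal fatty acid transporter, had 63.1 CPM at 24 h, 28.6 CPM at 12 h and 226 CPM at 0 h, a ratio of 1.14, where counting error allows 0.99 at the least. The transporter gene Abca9 had 53.3 CPM at 24 h and 24.8 CPM at 12 h, and the transcriptional repressor gene Bcl6 had 47.7 and 22.1 CPM, where the untreated levels were 121 and 117 CPM. For these 4 the 24 h level lay between the 12 h and the untreated ones. The median levels of the 28 genes called higher with at least 5 CPM were 11.5, 7.81 and 16.5 CPM at 0, 12 and 24 h, and those of the 68 called lower were 15.7, 44.5 and 19.2 CPM. Both sets were chosen by their ratio to the 12 h group. A 12 h level that is extreme beside 0 h can follow in part from that choice, so these medians are a description only. The urokinase gene Plau, at the edge of the rule, had 397 CPM at 24 h, 198 CPM at 12 h and 566 CPM at 0 h.

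Epha2 and Cda were already above their untreated level at 12 h. Epha2, a receptor tyrosine kinase, had 18.9 CPM at 24 h, 8.81 CPM at 12 h and 5.39 CPM at 0 h, a ratio of 1.10 (0.82 to 1.39). Cda, which deaminates cytidine, had 12.0 CPM at 24 h, 5.56 CPM at 12 h and 2.99 CPM at 0 h. Other named genes called higher had similar levels at 24 h and 0 h: Pdzd2 had 8.75 CPM at 24 h, 2.75 CPM at 12 h and 7.29 CPM at 0 h, and the phosphodiesterase gene Pde4d had 7.58, 3.31 and 6.16 CPM. Ratios from the authors' TPM with a pseudocount of 1 were smaller for these low genes, 0.55 for Pdzd2 and 0.29 for Pde4d.

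The largest ratio among genes called higher with at least 5 CPM, that of Rpl30 at 2.24 (2.12 to 2.36), stands beside opposite ratios of its near-identical copies; how reads were divided among them was not tested. Rpl30, a ribosomal protein gene, had 193 CPM at 24 h, 40.9 CPM at 12 h and 343 CPM at 0 h. Its processed pseudogene Gm12191, with 90.3% of its 31-base words found in Rpl30, had 159 CPM at 24 h against 444 CPM at 12 h, a ratio of -1.48. Rpl30-ps1, Rpl30-ps10 and Rpl30-ps8 had ratios of -1.69, -1.19 and -1.11. Summed over the 5 genes the level was 413 CPM at 24 h and 640 CPM at 12 h, a ratio of -0.63 (-0.67 to -0.59), so the sum was lower at 24 h where Rpl30 alone was higher. Across the 68 ribosomal protein genes no other was called, the median was -0.19, and 40 of them share at least 25% of their words with another gene. Of the 952 processed pseudogenes compared, 25 were called lower (2.63%) and 12 higher (1.26%), beside 1.63% and 2.79% of all genes. Of these pseudogenes, 849 share at least 25% of their words with another gene.

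Mitochondrial mRNAs lay above 0 and the mitochondrial rRNAs close to it. All 12 mitochondrial mRNAs had ratios above 0, between 0.47 and 1.47, with a median of 0.60 and 2 called higher (mt-Nd3 and mt-Nd4l, both at low levels). Of the 12, 7 share sequence with other genes, these 2 and mt-Co1 included. mt-Nd1, a complex I subunit, had 1846 CPM at 24 h and 1042 CPM at 12 h, a ratio of 0.83 (0.80 to 0.85). Together the mRNAs came to 46424 CPM at 24 h, 31295 CPM at 12 h and 43790 CPM at 0 h, of which mt-Co1 alone had 35162, 23759 and 36313 CPM. The 11 mitochondrial tRNAs had a median of 0.58 and no call. Both mitochondrial rRNAs lay below 0: mt-Rnr1 had a ratio of -0.18, which turned slightly above 0 in the authors' TPM, and mt-Rnr2 of -0.23. The 53 nuclear genes of oxidative phosphorylation had a median of -0.11 and 1 call.

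Long noncoding RNAs that reside in the nucleus mostly had cytoplasmic ratios above 0. The list of 11 had a median of 0.53, 1 call and 9 ratios above 0, while its nuclear median was -0.07. Neat1, the scaffold of paraspeckles, had 436 CPM at 24 h and 224 CPM at 12 h in the cytoplasm, a ratio of 0.96 (0.91 to 1.02), where its nuclear ratio was -0.09. Malat1, a nuclear speckle RNA, had 2779 CPM at 24 h and 1692 CPM at 12 h in the cytoplasm, a ratio of 0.72, with a nuclear ratio of 0.27. Airn, an imprinted RNA antisense to Igf2r, was called higher with 7.68 and 3.12 CPM, but without a stated strand setting its reads cannot be told from those of the introns of Igf2r.

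A similar order ran across all genes by where their RNA lay in untreated cells. When the genes were split into 10 groups of 1069 by their nuclear-to-cytoplasmic ratio at 0 h, the median cytoplasmic ratio of 24 h over 12 h was -0.13 in the most cytoplasmic group and 0.23 in the most nuclear group. The nuclear ratio of the same genes ran the other way, with medians of 0.03 and -0.10. Genes called higher made up 0.748% of the most cytoplasmic group and 8.79% of the most nuclear one, whereas genes called lower made up 1.40% of both. The level also differed, with a median of 94.7 CPM at 24 h in the most cytoplasmic group and 2.64 CPM in the most nuclear one. Among genes with at least 5 CPM the 2 medians were -0.13 and 0.13, and 4 of 984 (0.407%) and 4 of 193 (2.07%) were called higher. A mean count of 10 was reached by 11097 genes at 24 h and 10126 at 12 h. Low genes could pass the filter through the group where they were higher. The 300 genes just inside the count limit, of any location, had a median ratio of 0.20. The part of the filter in the order by location, and of that order in the ratios of single genes, was not tested. Of the 5415 genes that were more cytoplasmic than nuclear in untreated cells, 71 were called lower and 66 higher.

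**Figure D4:**
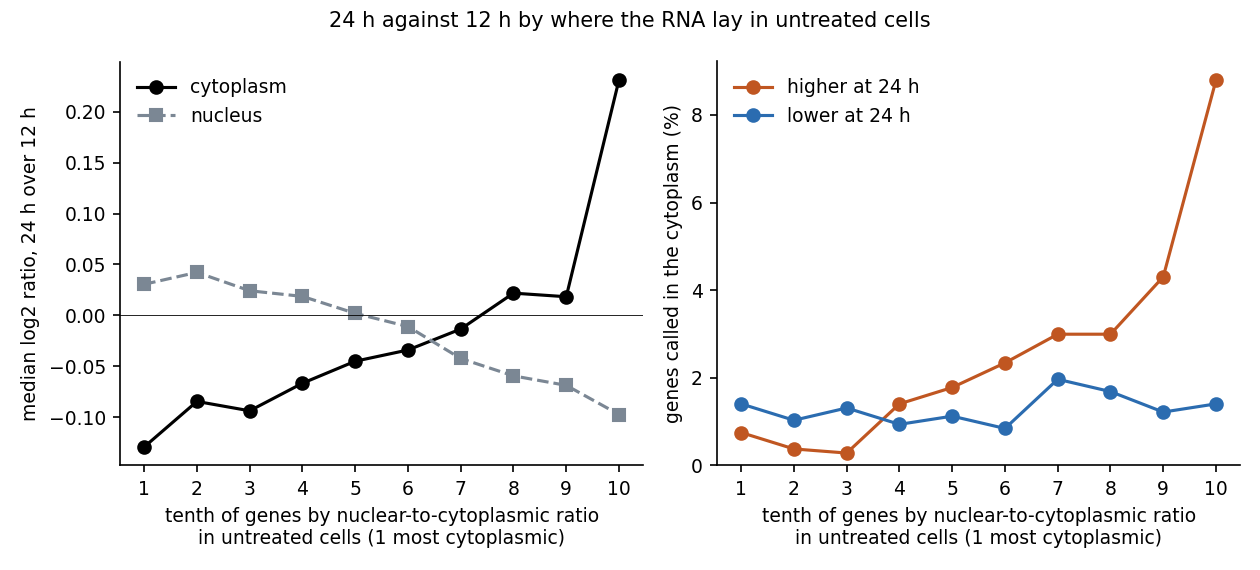
Genes in 10 groups by nuclear-to-cytoplasmic ratio in untreated cells (x axis, group 1 the most cytoplasmic, 1069 genes each). Left, the median log2 ratio of 24 h over 12 h, from -0.13 to 0.23 in the cytoplasm and 0.03 to -0.10 in the nucleus; right, the percentage of genes called in the cytoplasm, which climbs to 8.79% for higher and stays between 0.842% and 1.96% for lower.

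Calls were also counted by gene class. Called higher were 42 of 431 TEC models (9.74%), which await experimental evidence, 38 of 344 lincRNAs, 20 of 333 antisense genes (6.01%) and 7 of 50 sense intronic genes, against 172 of 8685 protein-coding genes (1.98%). The level differed as well: the median TEC model had 2.69 CPM at 24 h and 2.25 CPM at 12 h, the median protein-coding gene 17.1 and 17.6 CPM, and of the 300 genes of any class at the count limit 33 were called higher. The part of the level in the class shares was not tested. Protein-coding genes made up 126 of the 184 lower genes. Many antisense and intronic models overlap other genes, and with the strand setting not given their reads cannot be told from those of the overlapped gene.

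In the nucleus, 180 of 16392 genes were at least 2-fold lower at 24 h than at 12 h (1.10%) and 268 at least 2-fold higher (1.63%), and 10643 genes could be compared in both fractions. Of the 153 genes lower in the cytoplasm that were compared in the nucleus, 29 were lower there too (19.0%), beside 66 of all 10643 (0.620%), and 119 had a nuclear ratio below 0. Of the 276 genes higher in the cytoplasm, 23 were higher in the nucleus (8.33%), beside 111 of all (1.04%), and 166 had a nuclear ratio above 0. Across the 6880 genes with at least 5 CPM in both fractions, which are not independent replicates, Pearson's r between the ratios was 0.49, and it was 0.32 over all 10643. The fractions came from separate libraries of the same groups.

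Several of the strongest cytoplasmic changes had a nuclear ratio of like size. Mmp13 had a nuclear ratio of -2.51 beside -2.60 in the cytoplasm, Gbp2 -2.52 beside -2.25, and Csf3 -1.21 beside -1.40. Il1b was lower by more in the cytoplasm: 24.9 CPM at 24 h and 102 CPM at 12 h in the nucleus gave -2.04, and the difference of cytoplasm minus nucleus was -1.03 (-1.22 to -0.85). For Il1a that difference was -0.60 (-0.69 to -0.50), for Isg15 -0.65 (-0.82 to -0.48) and for Ptgs2 -0.45 (-0.50 to -0.39). For Csf3 it was smaller, -0.20 (-0.25 to -0.14), and its interval also left out 0. These intervals hold counting error only, and the 2 fractions were scaled separately. The scaling factors were 1.05 at 24 h and 0.968 at 12 h in the cytoplasm, and 0.915 and 0.970 in the nucleus. Scaling by total counts raised the cytoplasmic ratios alone by 0.11. A difference as small as that of Csf3 therefore depends on the scaling, and the larger ones depend on it in size. Bcl6 and Epha2 were called higher in both fractions, with nuclear ratios of 1.06 and 1.09. Over the 30 interferon genes the nuclear median was -0.79, with 9 called lower.

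The genes on which the fractions differed most, among plain names with at least 5 CPM in both, were Rpl30 (2.60), Pdzd2 (1.63), Sbf1 (1.39) and Airn (1.36) on the side of a higher cytoplasm, and Mmp9 (-1.49), Umps (-1.48), Rgs9 (-1.36) and Snord13 (-1.33) on the other. For Rpl30 the ratios of its copies, given above, stand beside this value. Mmp9, a gelatinase, had 45.3 CPM at 24 h and 17.1 CPM at 12 h in the nucleus, a ratio of 1.40, but -0.09 in the cytoplasm. Umps, an enzyme of pyrimidine synthesis, had a nuclear ratio of 0.99 and a cytoplasmic one of -0.48. Pdzd2 had 33.1 CPM at 24 h and 32.1 CPM at 12 h in the nucleus, so its higher cytoplasmic level had no nuclear counterpart. Arg1 and Fos, called lower in the cytoplasm, had nuclear ratios of 0.03 and 0.00.

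**Figure D5:**
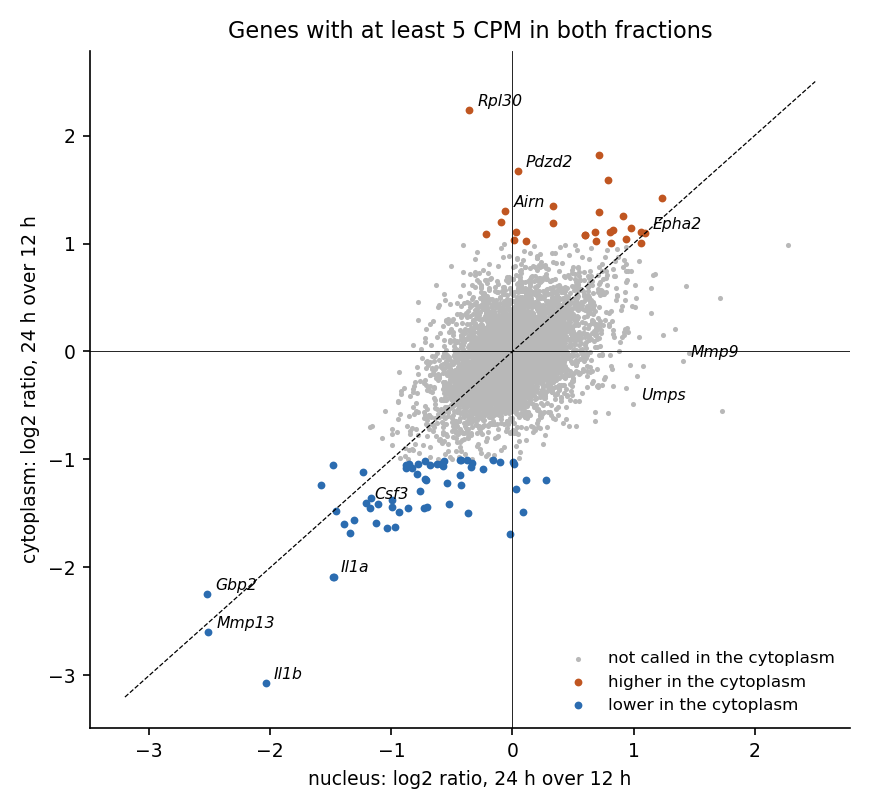
Log2 ratio of 24 h over 12 h in the cytoplasm (y axis) against the nucleus (x axis) for 6880 genes with at least 5 CPM in both fractions; blue and orange points are genes called lower and higher in the cytoplasm and the dashed line marks equal ratios. Il1b and Il1a lie below the line, Mmp13, Gbp2, Csf3 and Epha2 near it, and Rpl30, Pdzd2 and Airn above it.

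Lists of other cellular programmes held few calls. Mitosis genes had a median of 0.27, with 1 of 38 called higher (Kif20a, at 1.91 CPM at 24 h and 0.812 CPM at 12 h, with shared sequence), and the 37 DNA replication genes had 0.15 and no call. Genes of the ER chaperone, heat shock and proteasome lists had medians of -0.30, -0.29 and -0.25, with no call among 26, 15 and 34 genes. Homeostatic microglia genes had a median of 0.00 over 15 genes and no call, and the 25 disease-associated microglia genes had -0.21 and 1 call, Axl, a phagocytic receptor kinase (0.733 CPM at 24 h, 1.87 CPM at 12 h). No gene was called among 27 ATF4 targets (median -0.13), 17 cholesterol synthesis genes (-0.25), 15 liver X receptor genes (-0.04), 35 lysosome genes (-0.08), 25 glycolysis and hypoxia genes (-0.21), 12 p53 targets (-0.14), 36 translation factors (-0.11), 8 polymerase III transcripts (-0.01) and 54 histone genes (-0.05). Dusp1, a MAP kinase phosphatase, was the 1 lower gene of 25 in mRNA decay and MAP kinase control (median -0.21), Snhg15 the 1 of 9 small nucleolar RNA host genes (-0.01) and Hnrnpc the 1 of 46 splicing factors (-0.16). The call of Dusp1, at -1.03, ended under total counts (-0.91), and in the authors' TPM + 1 Dusp1, Snhg15 and Hnrnpc had ratios of -0.23, -0.81 and -0.13, and Axl and Kif20a of -0.16 and 0.21. Among 18 ferroptosis genes Ptgs2 was lower and Alox15, a lipoxygenase, higher, with 3.72 CPM at 24 h and 1.37 CPM at 12 h. The ratio of Alox15, 1.43, was 0.98 in the authors' TPM + 1 and 0.99 with 1 added to the scaled CPM, and each ended the call. Of 89 small nucleolar and spliceosomal RNAs 3 were lower and 2 higher, with a median of -0.29 in the cytoplasm and 0.26 in the nucleus. Actb, the cytoplasmic actin, had 2039 CPM at 24 h and 2771 CPM at 12 h, a ratio of -0.44.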

How the data were processed

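Nuclear and cytoplasmic RNA of BV2 cells was sequenced in 18 libraries, 3 per group; tagmentation libraries were made per the labels' protocols. Per the submitters' processing notes, reads were processed with HISAT2 2.2.0, GRCm38, featureCounts and DESeq2; neither the strand setting nor the annotation release is stated there. The deposited table holds the authors' mean counts per group: every value times 3 was whole within 0.001. TPM, deposited by the authors, served as an alternative. The number of per-sample columns left unused was 0.

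The planned test across libraries needs single libraries and was replaced by ratios with counting intervals. In Python 3.11.15 (numpy 2.4.6, pandas 2.3.3, scipy 1.17.1), the mean counts of the cytoplasmic groups, and separately the nuclear ones, received trimmed-mean (TMM) scaling factors (30% of log ratios and 5% of mean levels trimmed). Intervals at 95% used reads summed over 3 libraries. A group at 0 took a floor of 3 reads. Tested on simulated data for this comparison (10937 genes), 200 of 200 genes changed 3-fold were recovered and 26 unchanged genes were called. The simulation held counting error only, with no spread between libraries, and its changed genes were drawn from well above the count limit. It therefore cannot show how calls hold at low counts or under variation between libraries. Genes called higher had a median mean count of 5 at 12 h.

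The 43 gene lists, the members and the motifs were chosen with earlier results of these data known. Named genes were the 14 lowest and 14 highest called genes with at least 5 CPM, up to 4 members per list with at least 1 CPM, 32 fixed genes and the 4 largest and 4 smallest differences between fractions. Cybb, Tnfrsf1b, Plau, Irf7, Csf2, Ccl3, mt-Co1, Laptm5, Ctss, Aif1, Cx3cr1, Csf1r, Gm9104, the mitochondrial rRNAs and the Rpl30 pseudogenes were named after their values were seen. Genes sharing at least 25% of their 31-base words with another gene are given as shared.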

Additional observations from a re-analysis of the deposited data

Results flagged for a closer look

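One gene was called in opposite directions in the 2 fractions, a difference that was not tested. Gm9104, a processed pseudogene on chromosome 17, had 3.67 CPM at 24 h and 0.562 CPM at 12 h in the cytoplasm, a ratio of 2.71, and 1.29 CPM at 24 h and 3.63 CPM at 12 h in the nucleus, a ratio of -1.49. It shares 76.6% of its 31-base words with other genes, and its mean counts were between 3 and 25.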

How the results depend on the processing

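The counts of genes depend on the limits set. Lower and higher genes numbered 592 and 844 with no filter on counts, 61 and 28 with a mean count of at least 50, 688 and 839 at 1.5-fold, 25 and 30 at 4-fold, and 46 and 111 with the authors' TPM + 1. Protein-coding genes alone gave 172 higher. Chosen after seeing the data, a mean of at least 5 CPM gave 68 and 28, and genes more cytoplasmic than nuclear in untreated cells gave 71 and 66. With TPM + 1, the lists called lower counted 1 chemokine, 1 inflammatory enzyme, 6 interferon genes, 1 interferon-induced GTPase and 1 small RNA; at a mean count of at least 50 there were 0 chemokines and 0 small RNAs, and total-count scaling left 1 small RNA. Of the named genes, none changed sign among those called. Scaling by total counts ended 6 calls and added 6 among them, and TPM + 1 ended 36 and added 4. Genes called higher had a median mean count of 5 at 12 h, which limits the precision of their ratios. No paired analysis was possible because each column is a mean of 3 libraries, and for the same reason no library could be left out in turn.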
